A study of Mus musculus with 20 samples.

Results

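The genes of the proteasome, the protease complex that degrades ubiquitin-tagged proteins, were followed in the mouse prostate through castration and testosterone replacement. They were taken by name from the array annotation: each probe set with 1 gene symbol that begins with Psma, Psmb, Psmc, Psmd or Psme was included, and those of Psmb8 and Psmb9 were not. The names gave 40 symbols on 51 of 12422 probe sets. Of these symbols, 38 name subunits, activators or assembly chaperones of the proteasome, and the other 2, Psmc3ip and Psme3ip1, name binding partners that are not part of it. A gene was tested if at least 5 of 20 arrays read over 190.8, which is the median value of the whole table. This left 36 of the 38 proteasome genes among 5372 genes tested in all, and 35 of the 36 were above this floor on all 20 arrays. The 36 genes comprised 15 of 15 genes of the 20S core particle, 15 of 17 of the 19S regulatory particle and 6 of 6 activators and 19S assembly chaperones. The 2 genes left out were Psmc4, an ATPase of the 19S base, and Psmd2, its ubiquitin-docking scaffold, which were above the floor on none of the 20 arrays. Psme2, the partner subunit of Psme1, has no probe set with a symbol of its own and was not included.

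RNA of the whole prostate was measured in C57/B6 mice, 10 to 12 weeks of age, on 1 Affymetrix MG-U74A array per mouse. Each of the 4 groups had 5 mice. Sham-operated mice were the starting point, castrated mice were taken at 3 days and at 14 days, and a last group, called the testosterone group, received 15 mg of testosterone as a pellet once 14 days had passed and was taken 3 days later. The testosterone group therefore differs from the mice castrated for 14 days in the time since surgery as well as in the pellet. The sham group is coded N3 with no time since surgery stated, so comparisons with sham may also differ in that time. The design asks which transcripts follow the loss of androgen and which follow its return. All animals carried the same strain background, no transgene is named in the labels, and the 5 mice of a group are the replicates.

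The 20S core is a barrel of alpha rings, which gate the entry, around beta rings, which hold the proteolytic sites. The 19S regulatory particle docks on the alpha ring, where its lid and base bind ubiquitin chains, remove them and unfold the substrate with a ring of ATPases. Other caps, the 11S activators and Psme4, open the same gate without ATP, and inducible beta subunits replace the constitutive ones where interferon acts. In mammals the transcription factor NFE2L1 is known for raising many proteasome genes together when proteasome activity is short.

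Array medians ran from 154 to 225 signal units. In 4 arrays, which were replicates 2 and 5 of the testosterone group and replicates 4 and 5 at 14 days of castration, the log2 ratio of the 3′ to the 5′ control probe set of Gapdh was 1.82 to 4.54, against -0.53 to -0.08 in the other 16. All 7 luminal epithelial markers on the array averaged above the floor in the testosterone group and in sham prostates, and 6 of the 7 did at 14 days of castration. At 14 days against sham 3 were higher and 2 lower (limma, adjusted p under 0.05), and log2 changes ran from -6.49 to 0.96. In the testosterone group against 14 days 2 were higher and 3 lower, from -0.59 to 5.99. All genes tested gave 30.4% and 23.8%, and 18.7% and 27.8%, in the same order. Signals are from whole tissue, so fewer cells of a type and less RNA per cell cannot be told apart in any result here. Signals of different probe sets are not on a common scale, so no gene's level is set against another's.

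After 3 days of castration the proteasome genes were close to their sham levels, and those that had changed were an inducible core subunit and an activator. Psmb10, the inducible beta subunit, and Psme1, an 11S activator subunit, were higher, and none of the 36 genes was lower (limma, Benjamini-Hochberg adjusted p under 0.05 over all probe sets). In the background of all genes tested, 10.5% were higher and 4.65% lower. The arrays of both groups did not overlap for 2 genes that were higher and 0 that were lower, where the background was 9.16% and 4.82%. The median log2 change was 0.02 over the 36 genes and 0.04 over all genes. The remaining 34 genes had log2 changes between -0.31 and 0.18, the lowest being Psmd7, a lid subunit (adjusted p = 0.1). With the mean of a gene's probe sets 3 genes were higher, Psmd11, another lid subunit, being added.

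After 14 days of castration 9 of the 36 genes were higher than in sham prostates and 4 were lower, where the background was 30.4% higher and 23.8% lower. The higher genes were 5 of the core (Psmb10, Psmb6, Psma1, Psma5 and Psma2), 3 of the 19S particle (Psmd14, Psmc6 and Psmc5) and the activator Psme1. The lower genes were Psme3, a nuclear 11S activator subunit, Psmd5, an assembly chaperone of the 19S base, and the lid subunits Psmd8 and Psmd7. Regardless of the test, arrays did not overlap for 7 higher and 4 lower genes, where the background was 20.7% and 15.8%. These included Psmc3 (higher) and Psmd3 (lower), which did not pass the test, while the called genes Psmd14, Psmc6, Psmc5 and Psmd7 overlapped sham. The share of genes called was not above that of the array, and the median log2 change was 0.16 over the 36 genes and 0.04 over all genes. With arrays scaled by quantiles 15 of the 36 were higher, and without sham replicate 1 this count was 14. The calls of Psma2, Psmc5, Psmc6 and Psmd7 were lost in 3 to 7 of 30 other settings.

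Set against 3 days of castration, 14 days gave 11 genes higher and 3 lower, where the background was 21.4% higher and 19.9% lower. The higher genes were 6 of the core (Psmb10, Psmb6, Psma1, Psma5, Psmb3 and Psmb7), 4 of the 19S particle (Psmd14, Psmc6, Psmd6 and Psmd4) and Psme1. The lower genes were Psme3, Psmd5 and Psmd8. Arrays did not overlap for 7 higher and 3 lower genes, where the background was 17.2% and 16.3%. The median log2 change was 0.22 over the 36 genes and 0 over all genes. This comparison shares its 14-day arrays with the one above, and its counts moved to 6 higher with each array centred on its median, and to 19 higher and 6 lower with array weights.

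At 3 days after the testosterone pellet the proteasome genes that passed the test were mostly higher, in both particles. Against mice castrated for 14 days 19 of the 36 genes were higher and 2 were lower, where the background was 18.7% higher and 27.8% lower. Of the core genes 7 were higher and 1, Psmb10, was lower. Of the 19S genes 8 were higher and 0 were lower at this threshold, with 13 of 15 log2 changes above 0. Of the activators and chaperones 4 were higher and 1, Psme1, was lower. Arrays did not overlap for 12 higher and 1 lower gene, where the background was 13.1% and 19.6%. The median log2 change was 0.28 over the 36 genes and -0.11 over all genes. With the 4 arrays of high Gapdh ratio left out, 13 of the 36 were higher, and the calls lost were those of Psma5, Psmb5, Psmc2, Psmc5, Psmd9, Psmd11 and Psmd12.

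Set against sham prostates, the testosterone group had 27 of the 36 genes higher and 1 lower, where the background was 24.6% higher and 28.6% lower. The higher genes were 14 of 15 core genes, 9 of 15 19S genes and 4 of 6 activators and chaperones, and the lower one was Psme3. Psma4, an alpha subunit, was the core gene that did not pass the test, with a log2 change of 0.15 ± 0.11 (SE, adjusted p = 0.247). The median log2 change was 0.49 over the 36 genes and -0.07 over all genes. The arrays of the 2 groups did not overlap for 18 genes that were higher in the testosterone group and for 1 that was lower, where the background was 16.3% and 15.8%. With the 4 arrays of high Gapdh ratio left out, 22 of the 36 were higher and 1 lower, with a median of 0.40, and the calls lost were those of Psma3, Psmb1, Psmc6, Psmd9 and Psme4. The comparisons share groups of arrays, so their counts are not independent of each other. Centring each array on its median shifted the median of all probe sets by 0.20 (testosterone against 14 days) and 0.17 (testosterone against sham), and the median of the 36 genes was then 0.48 and 0.65.

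Markers of muscle and of fibroblasts were also examined in these comparisons. Over all genes tested, 10.5% were higher and 4.65% lower at 3 days against sham, and 30.4% and 23.8% at 14 days against sham. In the testosterone group 24.6% were higher and 28.6% lower against sham, and 18.7% and 27.8% against 14 days. All 6 smooth muscle markers were tested, and 5 were higher in the testosterone group against 14 days and 2 against sham. Their summed signal ran from 36808 to 39858 in the testosterone group, against 16123 to 21140.3 at 14 days and 25684 to 31236.5 in sham prostates, and none was at 0. The 9 skeletal muscle markers summed to between 11857 and 25541 in the testosterone group, against 2805 to 24595 at 14 days and 4025 to 18564 in sham prostates. These sums overlapped. Of the 9 markers 2 were higher and 1 lower against sham, with the higher share near that of all genes. Fibroblast markers were higher in 5 of 6 at 3 days, at 14 days and in the testosterone group, each against sham. In the testosterone group the other 1 was lower than in sham prostates. Against 14 days 3 of these fibroblast markers were higher and 3 lower in the testosterone group. Their summed signal ran from 16904 to 22286 in the testosterone group, from 17359 to 25713 at 14 days and from 16745 to 19859 at 3 days, against 12102 to 13641 in sham prostates, with no overlap with sham. The part of these tissues in the levels of the proteasome genes was not tested.

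**Figure D1:**
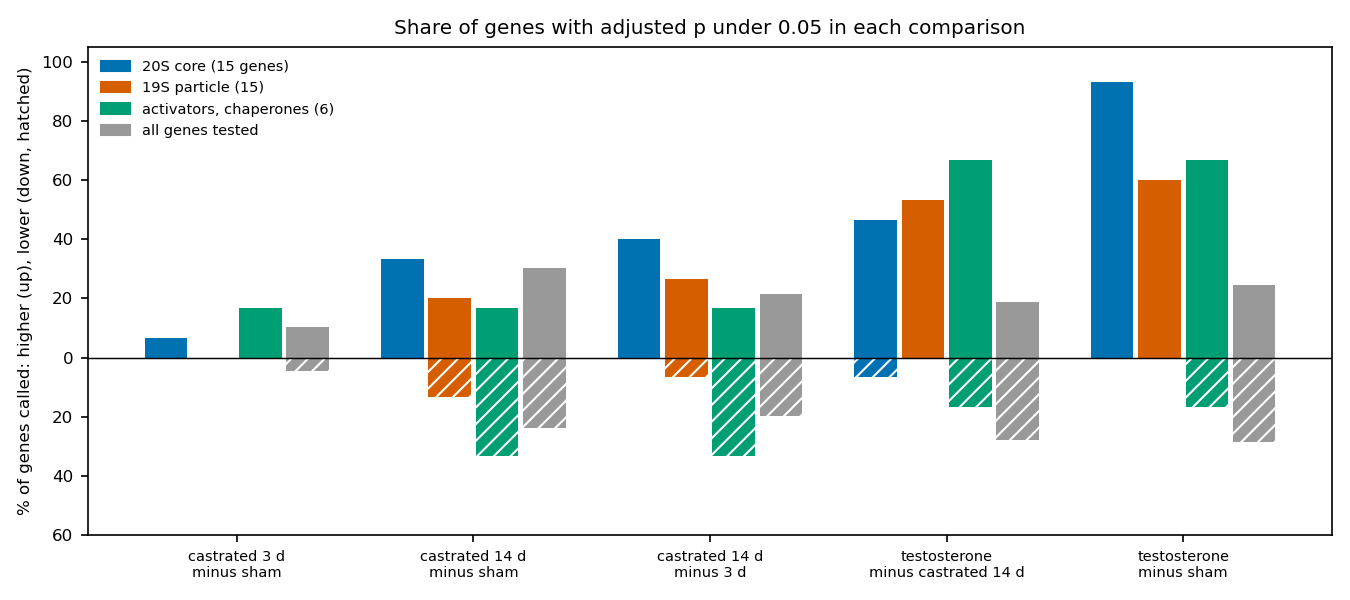
Share of genes with an adjusted p under 0.05 in the 5 comparisons, in percent of the genes tested in each class (15 core, 15 19S, 6 activators and chaperones, and all 5372 genes), with genes higher in the first-named group drawn upwards and genes lower in it drawn downwards and hatched. In the testosterone group against sham, 14 of 15 core genes were higher and none was lower, while 24.6% of all genes were higher and 28.6% lower.

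**Figure D2:**
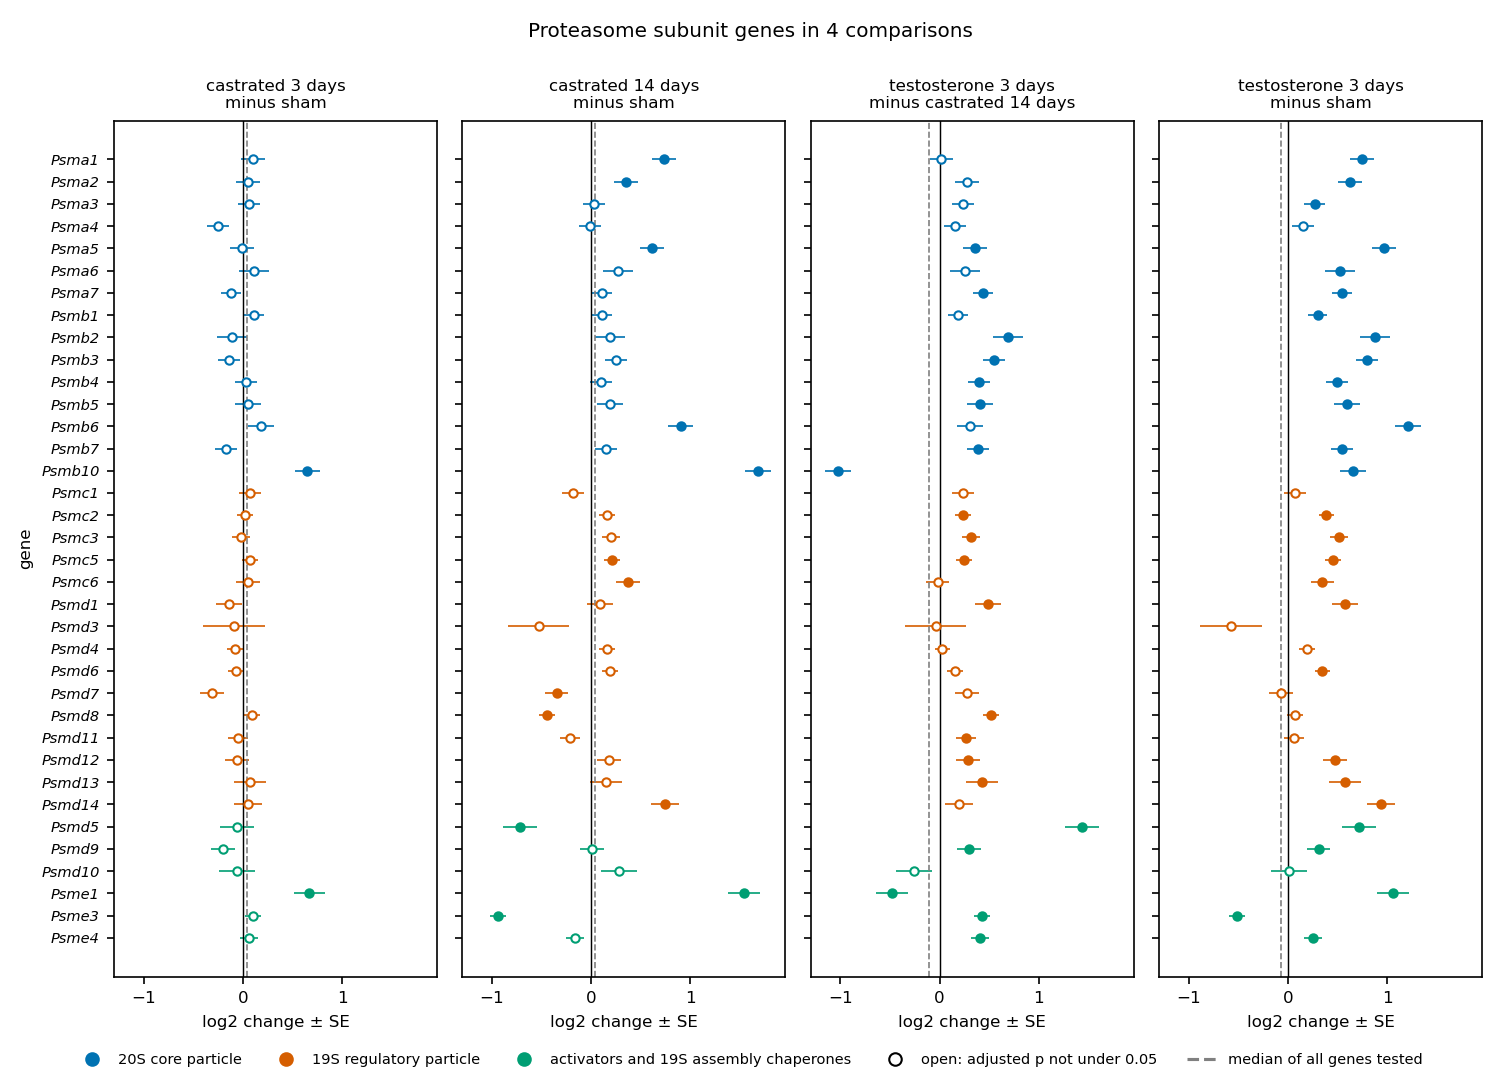
Log2 change with its standard error for each of the 36 genes in 4 comparisons, ordered by particle and coloured by class. Filled points had an adjusted p under 0.05 and dashed lines mark the median of all genes tested. Core genes lie between 0.15 and 1.21 in the testosterone group against sham. At 14 days of castration against sham, Psmb10 (1.68) and Psme1 (1.54) are highest and Psme3 (-0.94) and Psmd5 (-0.72) lowest.

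The alpha subunits form the outer rings of the core. Psma1 (probe set 96892_at, chromosome 7) read 526, 529, 554, 489 and 495 at 3 days of castration, against 639.8, 526, 455, 412 and 421 in sham prostates. It read 752, 995, 779, 715 and 907 in the testosterone group, against 774, 762, 697, 923 and 921 at 14 days of castration. Every array of the last 2 groups was above every sham array, and those 2 groups overlapped each other. The log2 change was 0.73 ± 0.12 at 14 days against sham (adjusted p = 5.74e-05) and 0.02 ± 0.12 in the testosterone group against 14 days (adjusted p = 0.896).

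Psma5 (94841_at, chromosome 3), another alpha subunit, read 1296, 1233, 1182, 888 and 1143 at 3 days of castration, against 1271, 1094, 1090.4, 1309 and 1018 in sham prostates. Its signals were 2053, 2446, 2179, 2021 and 2696 in the testosterone group, against 1859, 1759, 1444, 1937 and 1841 at 14 days of castration. The sham and 3-day arrays overlapped, the 14-day arrays all lay above them, and the testosterone arrays all lay above the 14-day arrays. The change in the testosterone group was 0.36 ± 0.12 against 14 days (adjusted p = 0.0155) and 0.97 ± 0.12 against sham, a fold of 1.96 (adjusted p = 1.78e-06). The call against 14 days was lost when the 4 arrays of high Gapdh ratio were left out, and also without replicate 5 of the testosterone group or replicate 3 of the 14-day group.

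The other 5 alpha subunits had smaller changes against sham at 14 days and in the testosterone group. Psma2 averaged 4762 ± 522 at 14 days against 3724 ± 259 in sham prostates (SD, n = 5 each), a log2 change of 0.35 ± 0.12 (adjusted p = 0.0192) that did not pass without the high-ratio arrays. With testosterone Psma2 averaged 5856 ± 1167, 0.63 ± 0.12 above sham (adjusted p = 0.000235). Psma7 was higher in the testosterone group against 14 days (0.44 ± 0.10, adjusted p = 0.00106) and against sham (0.55 ± 0.10, adjusted p = 0.000119). Psma6 and Psma3 were higher in the testosterone group against sham by 0.53 ± 0.15 and 0.27 ± 0.11 (adjusted p = 0.00521 and 0.048), and the Psma3 call was lost in 20 of 30 other settings. Psma4 passed the test in none of the 5 comparisons, with log2 changes from -0.25 to 0.24.

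The beta subunits carry the active sites of the core. Psmb6 (101992_at, chromosome 11), the caspase-like site, read 1591, 1483, 1538, 1402 and 1310.4 at 3 days of castration, against 1585, 1379, 1185, 1266 and 1087 in sham prostates. It read 2442, 3723, 2864, 2669 and 3485 in the testosterone group, against 2353, 2347, 1869.7, 2879 and 2779 at 14 days. All 14-day and testosterone arrays were above all sham and 3-day arrays, and they overlapped each other. Within the 14-day and the testosterone group the highest values came from the arrays of high Gapdh ratio, as for Psma1. Psmb6 rose by a log2 of 0.90 ± 0.13 at 14 days against sham (adjusted p = 1.71e-05), and in the testosterone group it was 2.31-fold its sham level, the largest of the 36 changes in that comparison (1.21 ± 0.13, adjusted p = 7.37e-07). The further step from 14 days to testosterone was 0.31 ± 0.13 and did not pass (adjusted p = 0.0681).

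Psmb2 (94219_at, chromosome 4), a structural beta subunit, read 1479, 1203, 1208, 1304 and 1139 at 3 days of castration, against 1541, 1286, 1326, 1175 and 1497 in sham prostates. Its signals were 2046, 2890.2, 2428, 2111 and 3271 in the testosterone group, against 1439, 1382, 1170.1, 1794 and 2170.2 at 14 days. Sham, 3-day and 14-day arrays overlapped, and the testosterone arrays lay above them except that 1 array of the 14-day group exceeded the lowest of the testosterone group. Within each of the last 2 groups the highest values came from the arrays of high Gapdh ratio. Psmb2 rose in the testosterone group by 0.69 ± 0.15 against 14 days (adjusted p = 0.00122) and by 0.88 ± 0.15 against sham (adjusted p = 0.000113).

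Psmb3 (94025_at, chromosome 11), also structural, read 2517, 2591, 2262, 2075 and 1897 at 3 days of castration, against 2956, 2459, 2478, 2256 and 2294 in sham prostates. It reached 4003, 4729.7, 4241, 3964 and 4664 in the testosterone group, against 3171, 2971, 2407, 3289.8 and 2936 at 14 days. All 5 testosterone arrays were above the 15 others, which overlapped among themselves. The rise was 0.55 ± 0.11 against 14 days (adjusted p = 0.000351) and 0.80 ± 0.11 against sham (adjusted p = 6.91e-06).

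Psmb5 (101558_s_at, chromosome 14), the chymotrypsin-like site, read 2827, 2964, 2738, 2497 and 2510.0 at 3 days of castration, against 3469, 2462, 2548, 2877 and 1956 in sham prostates. It read 3415, 3782, 4556, 3782 and 4459.9 in the testosterone group, against 3215, 2839, 2838, 3441 and 2633 at 14 days. The testosterone arrays were mostly the highest, but the lowest of them lay under the highest sham and 14-day arrays. The log2 change was 0.41 ± 0.13 against 14 days (adjusted p = 0.0118) and 0.60 ± 0.13 against sham (adjusted p = 0.000646). Another, dimmer probe set of Psmb5 (160559_at) went the other way against sham, by -0.67 (adjusted p = 0.0407), and with the mean of both probe sets the change was -0.03 (adjusted p = 0.82), so the direction of Psmb5 depends on the probe set.

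The remaining constitutive beta subunits rose in the testosterone group. Psmb7, the trypsin-like site, was higher by 0.39 ± 0.11 against 14 days and 0.55 ± 0.11 against sham (adjusted p = 0.00481 and 0.000275). Psmb4 was higher by 0.40 ± 0.11 and 0.50 ± 0.11 (adjusted p = 0.00632 and 0.00105), and the first of these calls was lost with quantile scaling. Psmb1 was higher against sham by 0.30 ± 0.10 (adjusted p = 0.0168), a call lost without replicate 2 of the testosterone group, and its other tested probe set gave 0.34 (adjusted p = 0.0261). The names of the probe sets for Psma3, Psmb4, Psmb5, Psmb7, Psmc3 and Psmd12 carry Affymetrix suffixes for probes shared by several similar sequences, so signal from near-identical copies cannot be told apart there.

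Psmb10 (101486_at, chromosome 8) encodes the inducible subunit that takes the place of the trypsin-like site in immunoproteasomes. It read 814, 683, 730.2, 657 and 685 at 3 days of castration, against 394, 503, 411, 377 and 597 in sham prostates. It read 700.3, 807, 740.3, 611 and 740.2 in the testosterone group, against 1584, 1578, 1126, 1513 and 1621 at 14 days. The 14-day arrays lay above all others, the 3-day and testosterone arrays overlapped each other, and neither overlapped sham. Psmb10 rose by 0.65 ± 0.13 at 3 days against sham (adjusted p = 0.00185) and by 1.68 ± 0.13 at 14 days, a fold of 3.21 (adjusted p = 3.31e-09). In the testosterone group its log2 change was -1.02 ± 0.13 against 14 days (adjusted p = 2.42e-06) and 0.66 ± 0.13 against sham (adjusted p = 0.000274), so it was the core gene with the largest rise at 14 days and the only core gene lower after testosterone.

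Psme1 (101510_at, chromosome 14) encodes an interferon-inducible subunit of the 11S activator. It read 1836, 1508, 1750.2, 1604 and 1507 at 3 days of castration, against 761, 1236, 1038, 1087 and 1059 in sham prostates. It read 1749, 2553, 2089, 1840.2 and 2649.7 in the testosterone group, against 2945, 2779.7, 2214, 3272 and 4114 at 14 days. All arrays of the 3 other groups were above all sham arrays, and the testosterone arrays overlapped those of 3 and of 14 days. The highest values at 14 days and in the testosterone group were those of the arrays of high Gapdh ratio. Psme1 rose by 0.67 ± 0.16 at 3 days (adjusted p = 0.00694) and 1.54 ± 0.16 at 14 days against sham (adjusted p = 1.57e-07), and in the testosterone group it was still 2.08-fold the sham level (adjusted p = 2.01e-05). Its fall in the testosterone group against 14 days was -0.48 ± 0.16 (adjusted p = 0.0169), and this call was lost without replicate 5 of the 14-day group and with arrays centred on their medians.

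Markers of macrophages moved with these genes. Of the 8 macrophage markers on the array 7 were tested, and 6 of the 7 were higher at 3 days against sham, 7 at 14 days against sham, and 7 in the testosterone group against sham, while 7 were lower in the testosterone group against 14 days. Their summed signal ran from 4901 to 5862 at 3 days of castration, against 1917 to 2419.9 in sham prostates. It ran from 3898 to 5829 in the testosterone group, against 8901 to 16360.3 at 14 days, and none of the 8 was at 0. Of the 6 endothelial markers 4 were tested, and 3 were higher at 14 days against sham and 3 lower in the testosterone group against 14 days. Of the 7 lymphocyte markers 1 was tested. It was lower at 14 against 3 days (log2 change -0.92) and in the testosterone group against sham (-0.84). Over all genes, 10.5% were higher at 3 days, 30.4% at 14 days and 24.6% in the testosterone group, each against sham. In the testosterone group against 14 days 27.8% of all genes were lower. The part of macrophages and endothelium in the levels of Psmb10 and Psme1 was not tested.

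**Figure D3:**
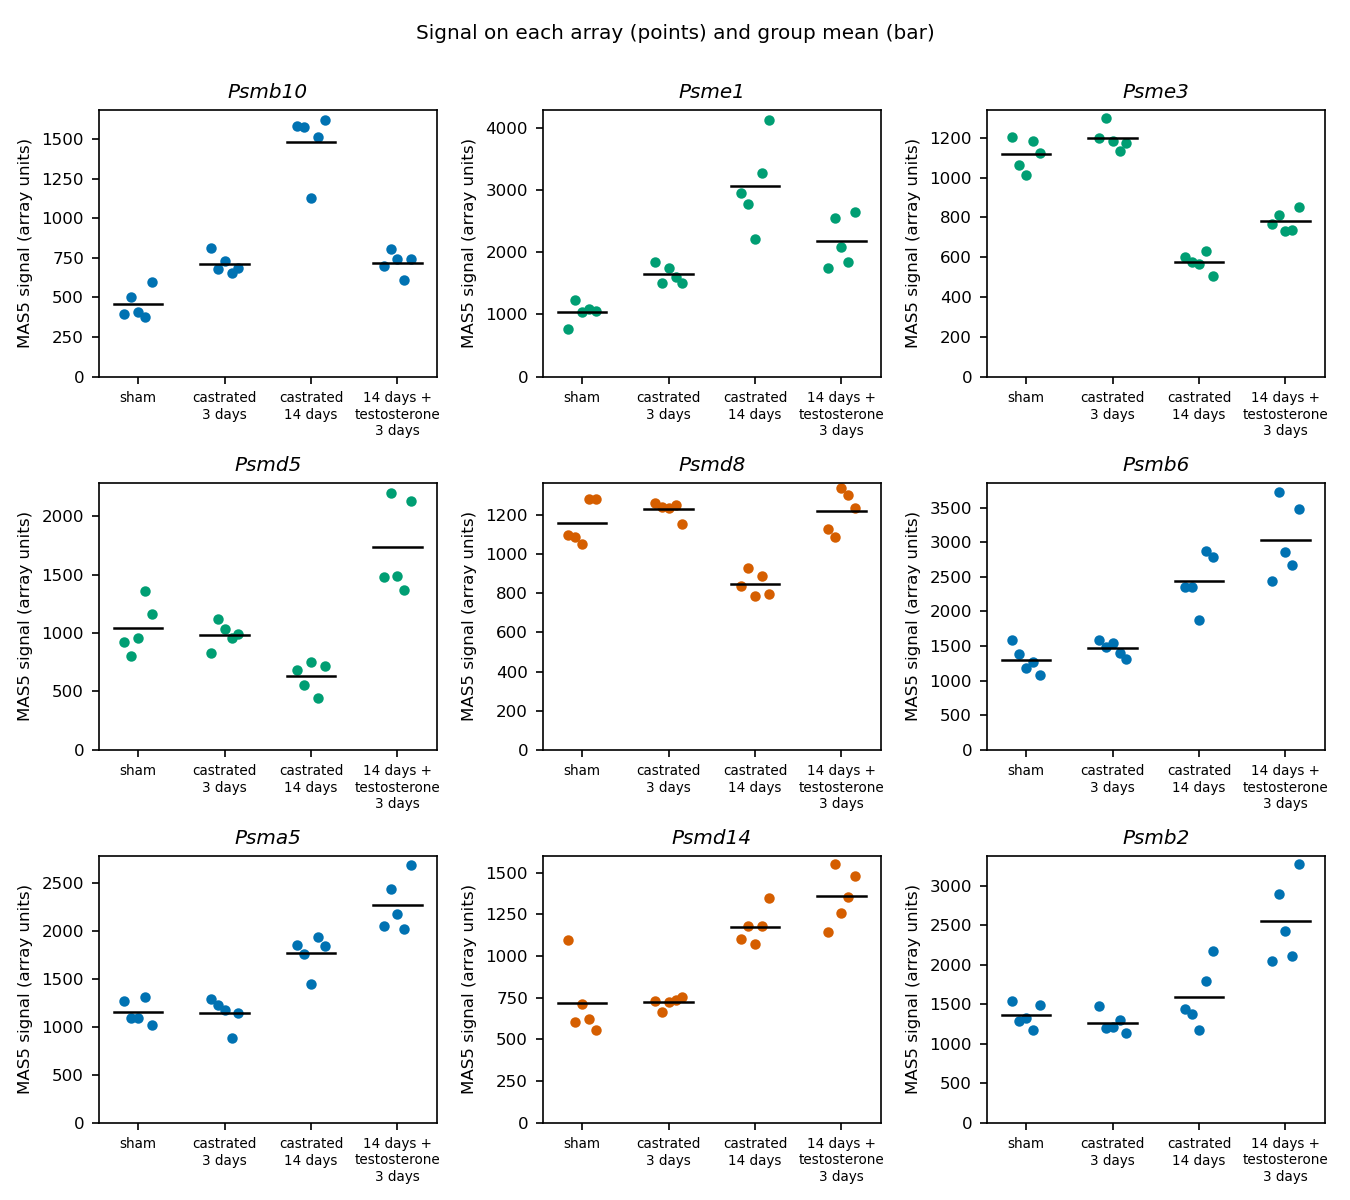
MAS5 signal on each of the 20 arrays (points) with the mean of each group (bars) for 9 genes, on linear axes that start at 0, with the 4 groups from sham to testosterone along each axis. Psmb10 and Psme1 are highest at 14 days of castration, Psme3, Psmd5 and Psmd8 are lowest there, and Psmb6, Psma5, Psmd14 and Psmb2 are highest in the testosterone group.

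The base of the 19S particle holds the ATPases that pull substrates into the core. Psmc1 (160152_at, chromosome 12), one of these ATPases, read 1028, 1047, 1056, 1073 and 901 at 3 days of castration, against 1030.2, 941, 1079, 901 and 925 in sham prostates. It read 1118, 802, 1131, 1147 and 951 in the testosterone group, against 883, 953, 956, 745 and 781 at 14 days. The 4 groups overlapped throughout, and no comparison passed the test, with log2 changes from -0.24 at 14 against 3 days (adjusted p = 0.0716) to 0.24 in the testosterone group against 14 days (adjusted p = 0.0648). With the 4 arrays of high Gapdh ratio left out, Psmc1 passed in the last of these comparisons (0.28, adjusted p = 0.031). The other 4 tested ATPases were higher in the testosterone group against sham: Psmc3 by 0.52 ± 0.09, Psmc5 by 0.46 ± 0.08, Psmc2 by 0.39 ± 0.08 and Psmc6 by 0.35 ± 0.12. Their adjusted p-values were 6.17e-05, 6.7e-05, 0.000684 and 0.0172 in the same order. Psmc6 had its rise by 14 days (0.37 ± 0.12 against sham, adjusted p = 0.0122), and its change in the testosterone group against 14 days was -0.02 ± 0.12 (adjusted p = 0.907). With those 4 arrays left out, Psmc6 passed in neither comparison with sham.

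Psmd1 (95483_at, chromosome 1) is the large scaffold of the base. It read 1273, 1243, 1242, 1084 and 993 at 3 days of castration, against 1732, 1142, 1285, 1194 and 1129.7 in sham prostates. It read 1809, 2321, 1699, 1825 and 1997 in the testosterone group, against 1326, 1477, 1088, 1522 and 1469.7 at 14 days. The testosterone arrays lay above all 3-day and 14-day arrays, and 1 sham array reached into their range. Psmd1 rose in the testosterone group by 0.49 ± 0.13 against 14 days (adjusted p = 0.00401) and by 0.58 ± 0.13 against sham (adjusted p = 0.00086). Psmd4, a ubiquitin receptor of the base, passed in 1 of the 5 comparisons, being higher at 14 against 3 days (0.24 ± 0.08, adjusted p = 0.0281), and 9 of 30 other settings lost that call.

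The lid removes the ubiquitin chain before the substrate is degraded. Psmd14 (97274_at, chromosome 2), the deubiquitinase of the lid, read 732, 666, 723, 739 and 755 at 3 days of castration, against 1094, 603, 715, 620.0 and 556 in sham prostates. It read 1146, 1551, 1259.8, 1354 and 1482 in the testosterone group, against 1104, 1178, 1075, 1178 and 1347 at 14 days. Sham replicate 1 was the only array of its group within the 14-day range, and the testosterone arrays were all above sham. Psmd14 rose by 0.74 ± 0.14 at 14 days against sham (adjusted p = 0.000189) and was 1.92-fold its sham level in the testosterone group (0.94 ± 0.14, adjusted p = 1.87e-05). It was the 19S gene with the largest change in both comparisons.

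Psmd8 (98522_at, chromosome 7), a lid subunit, went the opposite way at 14 days. It read 1260.2, 1243, 1236, 1251 and 1157 at 3 days of castration, against 1096, 1086, 1053, 1281 and 1281 in sham prostates. It read 1129, 1088, 1337, 1304 and 1234 in the testosterone group, against 836, 929, 785, 889.5 and 795 at 14 days. All 14-day arrays lay below the 15 others, which overlapped. Psmd8 fell to 847 on average at 14 days, against 1159 in sham prostates (-0.45 ± 0.08, adjusted p = 0.000191). It rose by 0.52 ± 0.08 in the testosterone group against 14 days (adjusted p = 5.08e-05), which left it 0.07 ± 0.08 from sham (adjusted p = 0.484).

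The other lid subunits were mixed. Psmd12 and Psmd13 were higher in the testosterone group against sham by 0.48 ± 0.12 and 0.58 ± 0.16 (adjusted p = 0.00241 and 0.00613), and Psmd6 was higher by 0.35 ± 0.08 (adjusted p = 0.00208). Against 14 days Psmd13, Psmd12 and Psmd11 passed by narrow margins (adjusted p = 0.0402, 0.0488 and 0.0366), and leaving out single arrays ended each of these calls. Psmd7 was lower at 14 days against sham (-0.35 ± 0.12, adjusted p = 0.0225), and 5 of 30 other settings lost that call. Psmd3 read 2112, 489.7, 2304, 1853 and 957 in the testosterone group, 1616, 1813, 1622, 1096 and 928 at 14 days and 1913, 2173, 1969, 1860.0 and 2037 in sham prostates. The lowest values of the first 2 of these groups were those of the arrays of high Gapdh ratio. Psmd3 passed in no comparison, and its log2 change in the testosterone group against sham was -0.57 ± 0.31 (adjusted p = 0.133) with those arrays and 0.07 (adjusted p = 0.714) when they were left out. For Psmd11 another probe set (160305_at) was higher by 0.37 at 3 days and 0.60 at 14 days against sham (adjusted p = 0.0282 and 0.000144), where the brighter set gave -0.05 and -0.21. In the testosterone group against sham it was higher by 0.54 (adjusted p = 0.000417), where the brighter set gave 0.06. The dimmest tested set of Psmd11 (160304_r_at) was higher by 1.03 at 3 days against sham (adjusted p = 0.0188) and did not pass at 14 days (0.42, adjusted p = 0.225).

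The assembly chaperones of the 19S base hold ATPase subunits until the ring closes. Psmd5 (96698_at, chromosome 2) read 829, 1118, 1031, 956 and 996 at 3 days of castration, against 925, 806, 958, 1365 and 1162 in sham prostates. It read 1480.3, 2199, 1487, 1369.7 and 2137 in the testosterone group, against 681, 558, 749.6, 439.7 and 722 at 14 days. The 14-day arrays were the lowest and the testosterone arrays the highest, and neither overlapped another group. The highest testosterone values were those of the arrays of high Gapdh ratio, as also for Psma5, Psmb3, Psmd1 and Psmd14. Over 30 other settings the log2 change of Psmd5 in the testosterone group against 14 days ran from 1.12 to 1.63. Psmd5 fell at 14 days against sham (-0.72 ± 0.17, adjusted p = 0.0016). In the testosterone group it was 2.71-fold the 14-day level, the largest change among the 36 genes in that comparison (1.44 ± 0.17, adjusted p = 1.46e-06), and 0.72 ± 0.17 above sham (adjusted p = 0.00165). Psmd9 was higher in the testosterone group by 0.30 ± 0.12 against 14 days and 0.31 ± 0.12 against sham (adjusted p = 0.0489 and 0.0385), calls that were lost in 20 and 9 of 30 other settings. Psmd10, also known as gankyrin, was near the floor and passed in no comparison.

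Psme3 (93803_at, chromosome 11) encodes the nuclear 11S activator, which is not induced by interferon. It read 1199.5, 1299.8, 1185, 1133 and 1175 at 3 days of castration, against 1202, 1062, 1013, 1184 and 1121 in sham prostates. It read 764, 814, 734, 738 and 853 in the testosterone group, against 603, 578, 566, 632 and 508 at 14 days. The 3-day and sham arrays overlapped, every 14-day array lay below every other array, and the testosterone arrays lay between. Psme3 was 1.91-fold lower at 14 days than in sham prostates (-0.94 ± 0.08, adjusted p = 1.29e-08). It was 0.43 ± 0.08 higher in the testosterone group than at 14 days (adjusted p = 0.000186) and -0.51 ± 0.08 from sham (adjusted p = 3.05e-05), the only one of the 36 genes called lower against sham. Psme4, the large single-chain activator, was higher in the testosterone group by 0.41 ± 0.09 against 14 days and 0.25 ± 0.09 against sham (adjusted p = 0.000695 and 0.0203).

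Core and regulatory particle were then set side by side on each array, as the mean log2 signal over the 15 core genes and over the 15 19S genes, each as a difference from its sham mean. The core averaged 0.04 ± 0.11 at 3 days, 0.38 ± 0.18 at 14 days and 0.62 ± 0.16 in the testosterone group (SD, n = 5 each). The 19S particle averaged -0.03 ± 0.06, 0.05 ± 0.04 and 0.30 ± 0.07 in the same 3 groups. At 14 days the core lay between 0.10 and 0.56, against -0.09 to 0.15 on the sham arrays, and the 19S particle lay between 0.01 and 0.12, against -0.08 to 0.18. Both were above their sham means on every 14-day array, and 1 of the 5 core values and 5 of the 5 19S values lay within the sham range. In the testosterone group the core, at 0.46 to 0.83, and the 19S particle, at 0.19 to 0.36, were above all sham arrays.

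The core exceeded the 19S particle by 0.33, 0.24, 0.09, 0.48 and 0.50 on the 14-day arrays, against -0.04, 0.08, -0.03, 0.01 and -0.02 on the sham arrays. In the testosterone group the excess was 0.20, 0.64, 0.24, 0.14 and 0.42. Every array of these groups was above every sham array, and the 3-day arrays, at -0.01 to 0.17, overlapped sham. The 4 highest values were those of the arrays of high Gapdh ratio, without which the excess ran from 0.14 to 0.24 in the testosterone group and from 0.09 to 0.33 at 14 days. Without Psmb10 in the core, a choice made after seeing the data, it ran from 0.01 to 0.41 at 14 days, which overlaps sham at -0.06 to 0.07, and from 0.14 to 0.64 in the testosterone group. By comparison, the median log2 change of the core genes minus that of the 19S genes was 0.06 at 3 days, 0.04 at 14 days and 0.25 in the testosterone group, each against sham, and 0.06 in the testosterone group against 14 days, where quantile scaling turned it to -0.11. With the 4 high-ratio arrays left out it was -0.03 at 14 days and 0.18 in the testosterone group against sham. No test was made on these means, because the members were chosen with results of these data known.

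**Figure D4:**
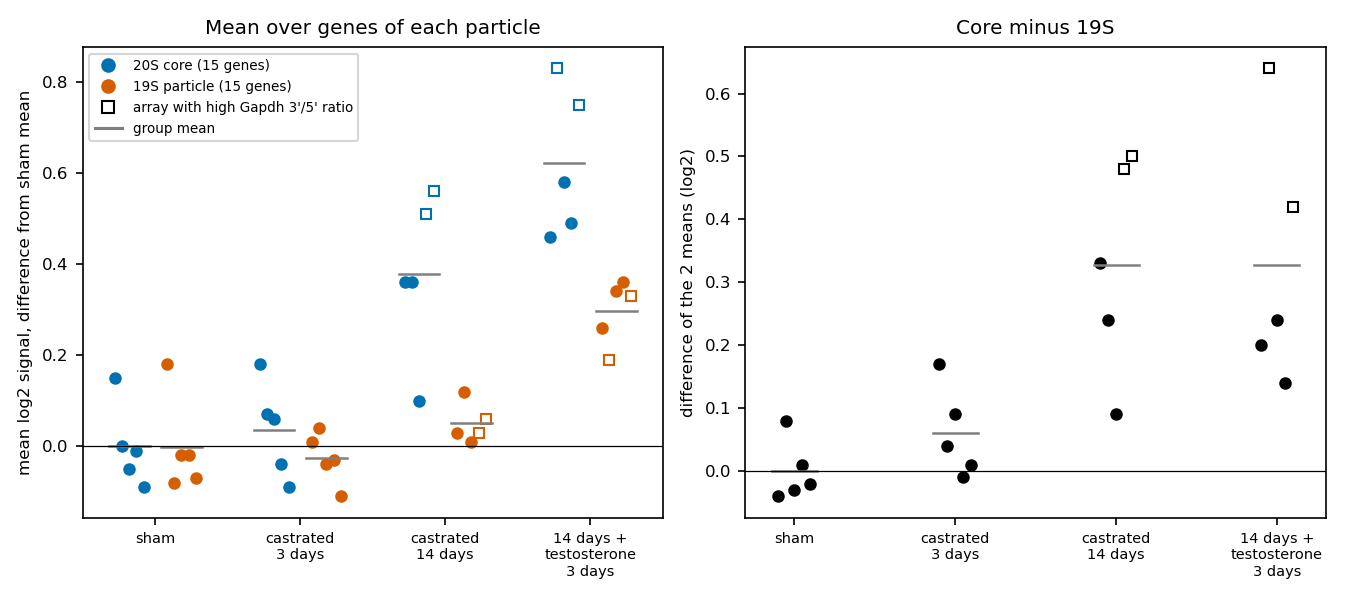
Left, mean log2 signal of the 15 core genes and the 15 19S genes on each array as a difference from the sham mean. Right, the core mean minus the 19S mean on each array. Open squares are the 4 arrays of high Gapdh 3′/5′ ratio and bars are group means. The right panel runs from 0.14 to 0.64 in the testosterone group, against -0.04 to 0.08 in sham, with the open squares highest.

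Promoter sequences of RefSeq (build GRCm38.p6) were found for 32 of the 38 proteasome genes, and the 250 bases before each start site were searched on both strands for motifs of factors with a known link to these genes. The antioxidant response element TGACNNNGC, bound by NFE2L1 and NFE2L2 with small Maf partners, was present in 5 of the 32 genes (15.6%), against 11.5% of 27025 genes. The box CCAAT was in 12 (37.5%), against 37.5%, and the interferon-stimulated element (GAAANN followed by GAAA) in 3 (9.4%), against 3.5%. The STAT site TTCNNNGAA was in 0 of the 32, against 8.1%, and the androgen receptor hexamer AGAACA in 4 (12.5%), against 18.2%. A match describes letters in this window and is not a binding site. The 170 bases before the start site are shown for 5 genes that were higher in the testosterone group than in sham prostates, in the direction of transcription, with matches to these motifs in capitals. These 5 genes were picked by hand and each holds a match, so they do not represent all the genes that were higher. Psma5 and Psmb2, also higher against sham, gave no match or had no promoter sequence. Psmb5 was higher by its brighter probe set only. Psmb5 and Psmb6 carry the antioxidant element, Psma1, Psmb3 and Psmd14 carry CCAAT on either strand (as CCAAT or ATTGG), and Psmb3 also carries the interferon element on the opposite strand.
Psmb5, chr14:54617996-54618165, minus strand: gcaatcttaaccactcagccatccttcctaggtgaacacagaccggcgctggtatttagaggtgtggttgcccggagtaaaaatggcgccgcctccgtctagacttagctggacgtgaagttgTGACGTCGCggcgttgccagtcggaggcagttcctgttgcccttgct
Psmb6, chr11:70525187-70525356, plus strand: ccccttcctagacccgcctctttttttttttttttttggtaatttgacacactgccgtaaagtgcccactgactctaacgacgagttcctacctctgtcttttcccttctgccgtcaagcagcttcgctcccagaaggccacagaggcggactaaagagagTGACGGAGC
Psma1, chr7:114276117-114276286, minus strand: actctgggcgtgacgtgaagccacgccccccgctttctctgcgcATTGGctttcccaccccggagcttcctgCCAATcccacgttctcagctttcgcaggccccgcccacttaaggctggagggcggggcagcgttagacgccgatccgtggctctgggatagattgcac
Psmb3, chr11:97703264-97703433, plus strand: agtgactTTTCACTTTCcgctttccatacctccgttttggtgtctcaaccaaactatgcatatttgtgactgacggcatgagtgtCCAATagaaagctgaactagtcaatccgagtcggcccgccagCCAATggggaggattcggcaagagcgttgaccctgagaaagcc
Psmd14, chr2:61711524-61711693, plus strand: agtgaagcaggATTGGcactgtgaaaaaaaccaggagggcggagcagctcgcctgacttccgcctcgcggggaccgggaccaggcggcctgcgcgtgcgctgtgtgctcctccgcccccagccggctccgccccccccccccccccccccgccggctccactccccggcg

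The factors that build and control proteasomes were measured on the same arrays. Over all genes tested, 24.6% were higher and 28.6% lower in the testosterone group against sham, 30.4% higher and 23.8% lower at 14 days against sham, and 18.7% higher and 27.8% lower in the testosterone group against 14 days. Among 14 tested partners of the proteasome 7 were higher and 3 lower in the testosterone group against sham (median 0.26). At 14 days against sham 3 were higher and 4 lower, near the shares of all genes. In the testosterone group against 14 days 1 was higher and 0 were lower (median 0.15), where 18.7% and 27.8% of all genes were. Pomp, the maturation factor of the core, averaged 3529 ± 476 in the testosterone group against 1732 ± 349.6 in sham prostates (SD, n = 5 each), a log2 change of 1.03 ± 0.15 (adjusted p = 1.94e-05), and it was already higher at 14 days (0.91 ± 0.15, adjusted p = 6.4e-05). Psmg2, a chaperone of alpha ring assembly, was higher at 14 days by 0.59 ± 0.13 and in the testosterone group by 0.69 ± 0.13 against sham (adjusted p = 0.000968 and 0.000278). Sem1, a small lid subunit without the family's name, was higher at 14 against 3 days by 0.69 ± 0.14 (adjusted p = 0.000898). Ubqln1, a shuttle for ubiquitinated proteins, was lower in the testosterone group against sham (-0.78 ± 0.25, adjusted p = 0.0136).

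Of the 4 tested transcription factors linked to proteasome genes, 1 was higher and 3 were lower in the testosterone group against sham, where 24.6% and 28.6% of all genes were. Nfe2l1 averaged 1082 ± 424 in the testosterone group against 2154 ± 255 in sham prostates, a log2 change of -1.08 ± 0.25 (adjusted p = 0.00126). The small Maf genes Mafg and Mafk were also lower there, at -0.65 ± 0.14 and -0.58 ± 0.13 (adjusted p = 0.000971 and 0.00127). The part of these factors in the levels of the proteasome genes was not tested. Their changes were also not examined without the 4 arrays of high Gapdh ratio. Nfe2l2, the oxidative stress factor, averaged 1384 ± 136 at 14 days against 655 ± 76.8 in sham prostates, a change of 1.07 ± 0.10 (adjusted p = 6.18e-08). With testosterone Nfe2l2 was -0.62 ± 0.10 from 14 days (adjusted p = 5.76e-05).

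Among the enzymes that attach ubiquitin and its relatives, 18 conjugating enzymes were tested, and 4 were higher and 1 lower in the testosterone group against 14 days, where 18.7% and 27.8% of all genes were. At 14 days against sham 5 were higher and 5 lower, where 30.4% and 23.8% of all genes were. In the first of these comparisons Ube2s, Ube2c and Ube2t, which serve mitosis and DNA repair, rose by 1.62 ± 0.23, 0.92 ± 0.27 and 1.91 ± 0.16 (adjusted p = 1.05e-05, 0.00835 and 2.08e-08). Ube2h, another conjugating enzyme, was lower in the testosterone group than in sham prostates (-1.09 ± 0.20, adjusted p = 0.000146). Uba7, the activating enzyme of the interferon-induced modifier ISG15, was higher at 14 days against sham by 0.84 ± 0.12 and lower in the testosterone group against 14 days, at -0.57 ± 0.12 (adjusted p = 1.44e-05 and 0.000916). Uba3, which activates NEDD8, was higher at 14 days against sham by 0.58 ± 0.13 (adjusted p = 0.00135).

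The genes of endoplasmic reticulum-associated degradation, which feed misfolded secretory proteins to the proteasome, were mostly lower at 14 days. Of 12 tested 0 were higher and 8 lower at 14 days against sham (median -0.72), 3 were higher and 0 lower in the testosterone group against 14 days, and 0 were higher and 7 lower in the testosterone group against sham. The shares of all genes were 30.4% and 23.8%, 18.7% and 27.8%, and 24.6% and 28.6% in the same order, so the 3 higher genes were near the background. Edem2, which trims mannose from misfolded glycoproteins, averaged 1055 ± 208 at 14 days against 3629 ± 394 in sham prostates (-1.79 ± 0.15, adjusted p = 1.51e-08). Os9, Sel1l and Herpud1, which work with the membrane complex that exports such proteins, fell by 2.32, 1.36 and 1.27 on the log2 scale (adjusted p = 0.000121, 5.96e-05 and 9.64e-06).

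The genes that supply peptides for antigen presentation were mostly higher at 14 days as well. Of 9 tested genes 7 were higher and 1 lower at 14 days against sham, and 1 was higher and 6 lower in the testosterone group against 14 days, where all genes gave 30.4% and 23.8%, and 18.7% and 27.8%. The inducible core subunits Psmb9 and Psmb8 rose by 1.93 ± 0.13 and 1.88 ± 0.15 at 14 days against sham (adjusted p = 7.14e-10 and 8.47e-09), beside 1.68 ± 0.13 for Psmb10. The peptide transporter gene Tap1 rose by 0.89 ± 0.09 (adjusted p = 2.89e-07), and the interferon-responsive factor Irf1 fell by 1.02 on the log2 scale in the testosterone group against 14 days (adjusted p = 4.04e-06). Of 21 tested lysosome and autophagy genes 7 were higher and 6 lower at 14 days against sham, near the 30.4% and 23.8% of all genes, with the cathepsin gene Ctsh at 1.84 ± 0.13 (adjusted p = 1.84e-09). In the testosterone group against 14 days 1 was higher and 9 lower, where 18.7% and 27.8% of all genes were, with Gabarapl1, an autophagosome gene, at -1.20 ± 0.12 (adjusted p = 1.5e-07).

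Of the symbols that share the name without being subunits, Psme3ip1, a partner of the nuclear activator, averaged 887 ± 103 in the testosterone group against 825 ± 57.6 at 14 days, and passed in no comparison. Psmc3ip, which acts in meiotic recombination, was below the floor on every array, with signals between 26.8 and 106.7 in the testosterone group and between 11.4 and 19.5 at 14 days. Psmc4 and Psmd2 were measured between 9.9 and 61.7 and between 13.0 and 66.1 in the testosterone group, against 13.4 to 115.4 and 22.0 to 81.3 in sham prostates, all under the floor of 190.8.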

How the data were processed

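The values are signal intensity per probe set as the authors deposited them, made with MAS5 version 5.0 per the submitters' processing notes. Scanner settings and the scaling target are not given in the sources used here. Of 12488 probe sets 66 controls were set aside, and of the other 12422 the platform annotation gives 1 gene symbol to 10833, several to 396 and none to 1193.

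Intensities were used as log2(signal + 12.7), the pseudocount being their 10th percentile, so fold changes of dim genes are understated. Probe sets above 190.8 on at least 5 of 20 arrays (6913) entered 1 limma fit (limma 3.58.1, R 4.3.3) of all 4 groups with 5 comparisons. P-values were adjusted by Benjamini-Hochberg over all 6913 and called at 0.05. Each gene was read from its brightest tested probe set, which gave 5372 genes. Means and SDs are of signals, over 5 mice. The fit was tested on simulated data.

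Members, lists and the named genes were chosen with earlier results of these data known. Values on every array are given for the 5 called genes of largest change in each comparison and for Psmb10, Psme1, Psmb5, Psma1, Psmc1, Psmd1 and Psmd14. Alternatives were another pseudocount, filter, scaling, probe set rule or sample set, array weights, and each array left out in turn. The running numbers in the sample titles follow the groups, so processing order and treatment cannot be told apart.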

Additional observations from a re-analysis of the deposited data

Results flagged for a closer look

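Each of the 36 tested proteasome genes was screened in each of the 4 groups for 1 array lying far from the other 4. Of these 144 sets of 5 arrays 8 had such an array, where chance gives about 1 in 20, and none of the 8 was an array of high Gapdh ratio. The screen could hardly flag those arrays, because each affected group holds 2 of them and 2 arrays that shift together hide each other. Psmb10 read 1125.6 on replicate 3 of the mice castrated for 14 days, against 1512.5 to 1621.1 on the others, and Psmd12 read 664.4 on the same array, against 791.7 to 828.3. Replicate 5 of the mice castrated for 3 days was low for Psmc1, at 901.4 against 1027.9 to 1073, and for Psmd8, at 1156.9 against 1235.6 to 1260.2. Among the sham arrays Psmd6 read 2568 on replicate 1, against 1996.5 to 2039.7 on the others. Psmb1 read 2382.9 on replicate 4, against 1946.8 to 2053.1. Psmb7 read 1190.5 on replicate 2, against 1424.5 to 1512.5, and Psmd10 read 159.3 on replicate 3, against 232.4 to 270. The mean of the 19S genes was 0.18 above its sham mean on sham replicate 1, where the other sham arrays ran from -0.08 to -0.02. Psmd3 in the testosterone group was not flagged, with 489.7 and 956.5 on the 2 arrays of high Gapdh ratio against 1852.9 to 2303.8 on the others.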

How the results depend on the processing

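With quantile scaling 15 of the 36 proteasome genes were higher at 14 days of castration against sham, and the median change of the core minus that of the 19S genes was -0.11 in the testosterone group against 14 days. With each array centred on its median, 6 genes were higher at 14 against 3 days, 1 was lower in the testosterone group against 14 days, and the median change was 0.48 (testosterone against 14 days) and 0.65 (testosterone against sham). With array weights 19 were higher and 6 lower at 14 against 3 days. Leaving out the 4 arrays of high Gapdh ratio, the median change was 0.40 in the testosterone group against sham. With the mean of a gene's probe sets Psmb5 was at -0.03 in the testosterone group against sham. Leaving out each array in turn gave 7 to 14 genes higher at 14 days against sham (14 without sham replicate 1), and 3 to 5 lower at 14 against 3 days (5 without 14-day replicate 3 or testosterone replicate 2). It gave 1 to 2 lower in the testosterone group against 14 days (1 without 14-day replicate 5) and 1 to 2 lower against sham (2 without testosterone replicate 3). The cause was not tested.

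Centring changed the probe sets called in the testosterone group against 14 days to 1827 higher and 1024 lower (64.1% higher), from 1259 and 1840 (40.6%), and against sham to 2026 and 1206 (62.7%), from 1624 and 2041 (44.3%). Of the calls among the 36 genes, 2 of 2 at 3 days and 9 of 13 at 14 days against sham, 9 of 14 at 14 against 3 days, 11 of 21 in the testosterone group against 14 days and 22 of 28 against sham held in all 30 other settings. No paired analysis was possible because the labels give no pairing of mice between groups. The replicate numbers used here follow the order of the samples within each group. Precision is limited by having 5 arrays in a group, and the genes below the floor of 190.8 have no test.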
